A study of Mus musculus with 12 samples.

Results

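The 6 genes Gad1, Gad2, Slc32a1, Slc6a11, Abat and Aldh5a1 carry GABA, the main inhibitory transmitter of the striatum, from synthesis through transport to breakdown. They were chosen by name, as the rows with these symbols in a table of read counts for 24421 genes, and each of them passed the filter on low counts that left 15148 genes for testing. The study asked how varenicline, a partial agonist of nicotinic acetylcholine receptors used as a smoking cessation drug, affects ethanol drinking and striatal gene expression. RNA was sequenced from bilateral striatum of male C57BL/6J mice in 12 libraries, 6 labelled saline and 6 labelled varenicline (2 mg/kg). All mice drank 20% ethanol in the Drinking-in-the-Dark procedure, in which an ethanol tube replaces the water bottle for 2 h starting 3 h into the dark phase. The procedure ran for 3 cycles of 2 days, with a saline injection for every mouse in the first cycle and the assigned injection 30 min before the second day's session in the later cycles. Groups were assigned so that ethanol intake in the first cycle was equal. Saline mice therefore also drank ethanol and were injected, and no mice without ethanol were compared here. The labels give neither ages nor whether a library came from 1 mouse, so p-values measure the spread between these libraries.

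GABA is made from glutamate by glutamate decarboxylase, for which there are 2 genes. Gad1 encodes GAD67, which is found through the cytoplasm and is active at rest, and Gad2 encodes GAD65, which is anchored at nerve terminals and depends more on its pyridoxal phosphate cofactor. Slc32a1 encodes VGAT, the carrier that loads GABA and glycine into synaptic vesicles. Slc6a11 encodes GAT3, an uptake carrier of astrocytes that clears GABA from the extracellular space. Abat encodes GABA transaminase, and Aldh5a1 encodes succinic semialdehyde dehydrogenase, the mitochondrial enzymes that together turn GABA into succinate. In the striatum most GABA comes from the spiny projection neurons, which make up the great majority of its neurons, with a smaller part from local interneurons.

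The DNA just before the RefSeq start is shown for Gad1, Gad2, Slc32a1 and Slc6a11. Gad1, Gad2 and Slc32a1 make and load GABA and had the lowest unadjusted p of the 6, while the group means of Slc6a11 were nearly equal. The stretches come from RefSeq (GRCm38.p6, plus strand, 5′ to 3′), which held a window for 5 of the 6 genes, and each runs over up to 250 bases before the RefSeq start, ending earlier where GENCODE vM21 already places an exon of the gene. They cover chr2:70561879-70562041 for Gad1, chr2:22622077-22622204 for Gad2, chr2:158610508-158610757 for Slc32a1 and chr6:114130991-114131240 for Slc6a11. GENCODE starts Gad1 further upstream, at chr2:70553072, so by that annotation the Gad1 stretch lies inside the gene. The opposite-strand gene Gad1os (chr2:70489940-70563357) covers it as well. Capitals mark matches on either strand to any of 6 searched motifs, which are the homeodomain core TAATTA shared by many factors including the Dlx family, the cAMP response element TGACGTCA as a whole, the GC box core GGGCGG of Sp factors, the TATA box letters TATAAA close to some starts, the E-box CAGCTG of basic helix-loop-helix factors and the E-box CACGTG of the Myc and circadian factors.
Gad1: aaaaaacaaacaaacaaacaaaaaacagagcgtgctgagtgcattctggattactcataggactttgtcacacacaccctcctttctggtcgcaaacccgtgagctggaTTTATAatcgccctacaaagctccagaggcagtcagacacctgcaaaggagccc
Gad2: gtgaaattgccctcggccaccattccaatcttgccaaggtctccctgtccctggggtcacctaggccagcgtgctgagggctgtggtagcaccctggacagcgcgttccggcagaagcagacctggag
Slc32a1: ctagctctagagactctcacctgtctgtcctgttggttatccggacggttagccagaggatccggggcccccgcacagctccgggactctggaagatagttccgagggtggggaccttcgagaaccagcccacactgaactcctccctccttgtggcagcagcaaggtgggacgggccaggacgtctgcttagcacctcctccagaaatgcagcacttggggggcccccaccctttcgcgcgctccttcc
Slc6a11: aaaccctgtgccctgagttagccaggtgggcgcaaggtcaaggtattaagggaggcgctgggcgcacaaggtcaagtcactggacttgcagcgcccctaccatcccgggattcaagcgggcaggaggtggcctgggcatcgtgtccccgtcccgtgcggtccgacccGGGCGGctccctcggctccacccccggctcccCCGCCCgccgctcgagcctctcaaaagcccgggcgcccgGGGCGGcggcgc
Over the full 250-base windows, Gad1 held TATAAA on the minus strand 141 bases before the RefSeq start and GGGCGG on the minus strand 8 bases before it. Slc6a11 held GGGCGG at 83, 51 and 12 bases before the start, the match at 51 on the minus strand. The windows of Gad2, Slc32a1 and Aldh5a1 held none of these letters. Of all 32851 windows of this length, 32.7% held the GC box core, 12.4% the TATA box letters, 13% the E-box CAGCTG and 6.02% the other E-box. The homeodomain core was in 4.84% of them and the cAMP response element in 1.55%. GC content was 58% in the Gad1 window, 64% in Gad2, 62.4% in Slc32a1, 71.2% in Slc6a11 and 57.2% in Aldh5a1, against a median of 52.4% over all windows.

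Library totals ran from 13340420 to 27917715 counts, with a median of 22951419, and the 6 genes had 1645 or more counts in every library. Values are CPM, counts divided by the library's total and scaled by TMM, and replicate numbers follow accession order and pair nothing. Marker genes of the cell types that a striatal dissection could hold were read in each library. The lists were chosen with earlier results of these data known, so their counts by direction are not an independent check. Markers of striatal projection neurons, 10 in number, summed to 7846 to 12306 CPM in saline and 8508 to 13720 CPM in varenicline libraries. Markers of cortical excitatory neurons, a cell type outside the striatum, were at 622.4 to 1171 CPM in saline libraries and 121.7 to 462.3 CPM in 5 of the 6 varenicline libraries. The library varenicline 6 stood apart from its group with 1001 CPM of the cortical markers. In the edgeR fit all 10 cortical markers had lower values with varenicline, 9 of them at an unadjusted p under 0.05, with a median log2 difference of −1.10. All 10 projection neuron markers had higher values, 3 of them at that level, with a median of 0.21. Markers of septum and globus pallidus, which border the striatum, were higher for 7 of 7 tested genes, summing to 30.8 to 52.93 CPM in saline and 38.32 to 122.8 CPM in varenicline libraries, with Prdm12 at 0 in a library. In bulk tissue, fewer cells of a type and less RNA per cell cannot be told apart.

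The genes of GABA synthesis had higher mean levels with varenicline, and this difference was not called when all 12 libraries were compared. For Gad1 (ENSMUSG00000070880, chr2:70562164-70602012, plus strand, 17 exons in mm10), the lowest, median and highest saline libraries were at 471.9, 492.5 and 531.2 CPM, and the varenicline libraries at 491.7, 587.5 and 645.6 CPM. The groups overlapped, with 4 of 6 varenicline libraries above the highest saline library. Means were 497.4 ± 24.6 CPM in saline and 573.7 ± 57.9 CPM in varenicline (SD, n = 6 each), a log2 difference of 0.21 (SE 0.06) or 15.4%, with an edgeR adjusted p of 0.155. For Gad2 (ENSMUSG00000026787, chr2:22622327-22693877, plus strand, 16 exons), the lowest, median and highest were 323, 350.4 and 390 CPM in saline and 322, 437.2 and 463.3 CPM in varenicline. Of the varenicline libraries, 5 lay above every saline library, while varenicline 6 was the lowest of all 12. Gad2 means were 354.5 ± 29.7 and 421.2 ± 51.4 CPM (SD, n = 6 each), a log2 difference of 0.25 (SE 0.08) or 18.8%, with an edgeR adjusted p of 0.169.

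Vesicle loading showed a difference of like size. Slc32a1 (ENSMUSG00000037771, chr2:158610758-158615747, plus strand, 2 exons) was at 149.5, 174.3 and 207.5 CPM in the lowest, median and highest saline libraries and at 176.2, 207.3 and 218.9 CPM in varenicline. All 6 varenicline libraries were above the saline mean and 3 were above the highest saline library, so the groups overlapped. Means were 175.5 ± 22.4 and 200.1 ± 17.4 CPM (SD, n = 6 each), a log2 difference of 0.19 (SE 0.08) or 14%, with an edgeR adjusted p of 0.255.

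The astrocyte uptake carrier had nearly the same mean in both groups and varied most between libraries. Slc6a11 (ENSMUSG00000030307, chr6:114131241-114249886, plus strand, 14 exons) was at 132.7, 165.5 and 194.9 CPM in the lowest, median and highest saline libraries and at 121.4, 153.2 and 207.1 CPM in varenicline. Both the lowest and the highest of the 12 libraries carried the varenicline label, the highest being varenicline 6. Means were 162.3 ± 22.4 and 162.4 ± 35.2 CPM (SD, n = 6 each), a log2 difference of 0.0027 (SE 0.13) with an edgeR adjusted p of 0.994. Its coefficient of variation over all 12 libraries was 17.3%, against 6.99% for Aldh5a1, the steadiest of the 6 genes.

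Both breakdown enzymes had higher mean levels with varenicline, and neither was called. Abat (ENSMUSG00000057880, chr16:8513429-8621567, plus strand, 16 exons) was at 506.2, 566.4 and 628.4 CPM in the lowest, median and highest saline libraries and at 550.3, 643.4 and 675.2 CPM in varenicline. The groups overlapped, and 4 varenicline libraries lay above every saline library, the others being varenicline 1 and varenicline 6. Means were 564 ± 45.9 and 620.4 ± 52.7 CPM (SD, n = 6 each), a log2 difference of 0.14 (SE 0.07) with an edgeR adjusted p of 0.311. Aldh5a1 (ENSMUSG00000035936, chr13:24907579-24937661, minus strand, 10 exons) was at 125.2, 138.8 and 149.5 CPM in saline and 133.5, 142.3 and 158.2 CPM in varenicline. Only 2 varenicline libraries were above the highest saline library. Means were 137.3 ± 9.6 and 145.1 ± 9.24 CPM (SD, n = 6 each), a log2 difference of 0.08 (SE 0.06) with an edgeR adjusted p of 0.486.

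**Figure D1:**
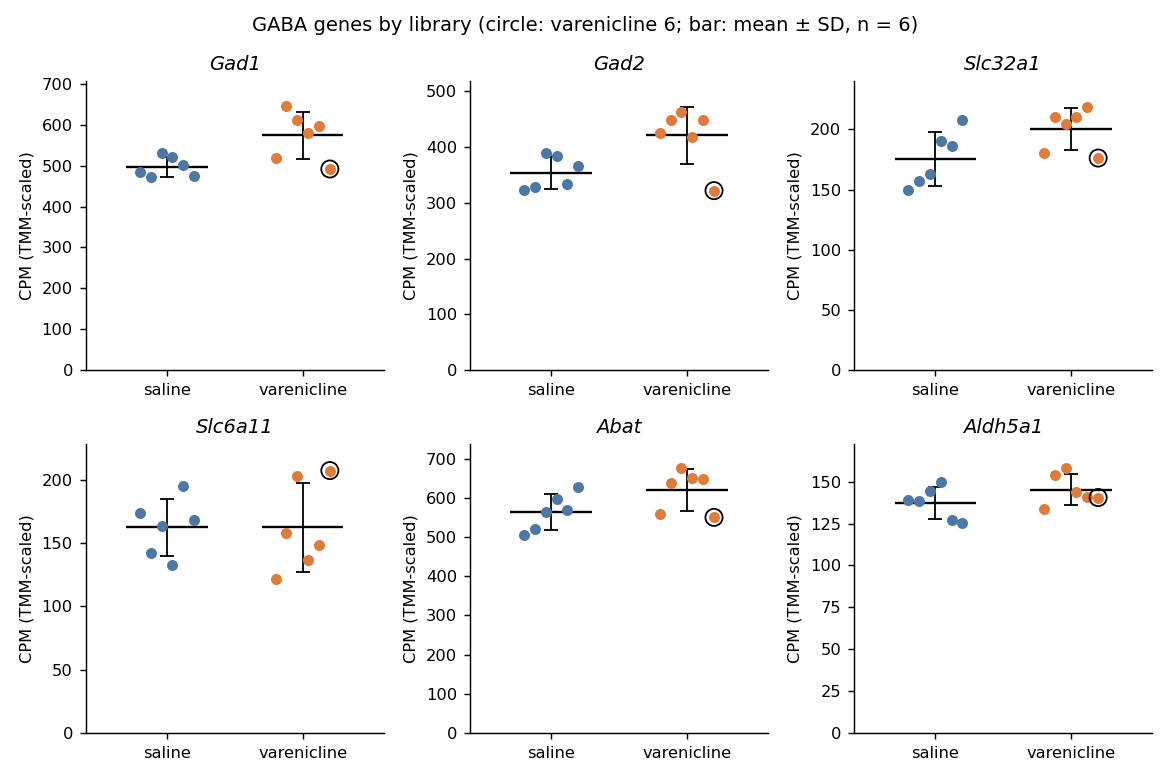
CPM (vertical axes, from 0) of each of the 6 genes in each library, with saline libraries in blue, varenicline libraries in orange, and a bar and whiskers for the mean ± SD (n = 6). Groups overlap for all 6 genes, and the circled library varenicline 6 lies at 322 CPM for Gad2, the lowest of all 12, and at 207.1 CPM for Slc6a11, the highest.

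In this edgeR comparison 0 of the 6 genes were called at an adjusted p of 0.05, and 0 of all 15148 tested genes were (0%). Fitted differences were above 0 for Gad1, Gad2, Slc32a1, Abat and Aldh5a1 and, at 0.0027, for Slc6a11, whose sign was the other way in 11 of 25 alternatives. Over all genes tested, 52.3% had a difference above 0. The 6 had a median log2 difference of 0.16 against 0.0074 over all genes. Of the 6, Gad1, Gad2 and Slc32a1 (3 genes) were higher at a p under 0.05 before adjustment, as were 7.26% of all genes. These were 1100 genes, and 1458 were lower. Groups did not overlap for 0 of the 6 genes, against 0.429% of all genes with varenicline wholly above saline.

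Leaving out varenicline 6 changed the calls for the decarboxylases. Gad1 then rose by 0.26 on the log2 scale (SE 0.06, edgeR adjusted p = 0.0107), from 497.4 ± 24.6 CPM in saline (SD, n = 6) to 590.2 ± 46.6 CPM in varenicline (SD, n = 5). Gad2 rose by 0.33 (SE 0.06, edgeR adjusted p = 0.00275), to 441.1 ± 18.5 CPM (SD, n = 5), and its groups no longer overlapped. Slc32a1 and Abat were not called in this edgeR fit, with log2 differences of 0.23 (adjusted p = 0.0677) and 0.18 (adjusted p = 0.0804). Of all 15232 genes tested without this library, 541 (3.55%) were called higher and 1628 were called in all, and 2.09% of 15148 genes had varenicline wholly above saline. The 2 calls thus stand in a comparison in which 1 library moved the count of called genes from 0 to 1628.

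Other models of all 12 libraries gave other calls. DESeq2 called 0 of the 6 genes, with adjusted p = 0.0611 for Gad1 and 0.07 for Gad2, while 1.11% of the 12495 genes with an adjusted p were called higher. limma-voom with sample weights, which lets a library that departs from its group count for less, called 4 of the 6, against 4.82% of all genes called higher. In that fit Gad1 rose by 0.23 (limma adjusted p = 0.00949), Gad2 by 0.30 (0.00668), Slc32a1 by 0.31 (0.00824) and Abat by 0.21 (0.0184) on the log2 scale. Slc6a11 had a log2 difference of −0.09 there and was not called.

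Marker levels moved with these differences. The mean log2 CPM of the 10 cortical markers was 4.75 to 5.56 in saline, 5.40 in varenicline 6 and 2.54 to 4.26 in the other varenicline libraries. That of the 10 projection neuron markers was 9.35 to 9.99 in saline, 9.44 in varenicline 6 and 9.73 to 10.11 in the other varenicline libraries. With the cortical mean as a covariate in edgeR, the log2 difference was 0.07 for Gad1, 0.01 for Gad2, 0.02 for Slc32a1, 0.05 for Slc6a11, −0.03 for Abat and 0.02 for Aldh5a1, each with an adjusted p of 0.998. With the projection neuron mean as a covariate it was 0.13 for Gad1 (edgeR adjusted p = 0.459), 0.12 for Gad2 (0.506), 0.06 for Slc32a1 (0.721) and 0.04 for Abat. With that covariate and without varenicline 6, an alternative chosen after seeing the data, it was 0.19 for Gad1 (edgeR adjusted p = 0.168), 0.23 for Gad2 (0.0905), 0.03 for Slc32a1 and 0.03 for Abat. The values for Slc32a1 and Abat thus lay near 0 in each of these fits. With the cortical covariate over all 12 libraries, Gad1 lay at 0.07 (SE 0.08) and Gad2 at 0.01 (SE 0.08), which does not show that a difference is absent. With that covariate and without varenicline 6, the log2 difference was 0.16 for Gad1, 0.15 for Gad2, 0.0024 for Slc32a1, −0.39 for Slc6a11 (SE 0.21, edgeR adjusted p = 0.535), −0.06 for Abat and −0.0024 for Aldh5a1, and edgeR called 0 of the 6 genes. A covariate that differs between the groups also takes up part of any group difference it moves with, and the parts of treatment and of tissue makeup cannot be told apart here.

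**Figure D2:**
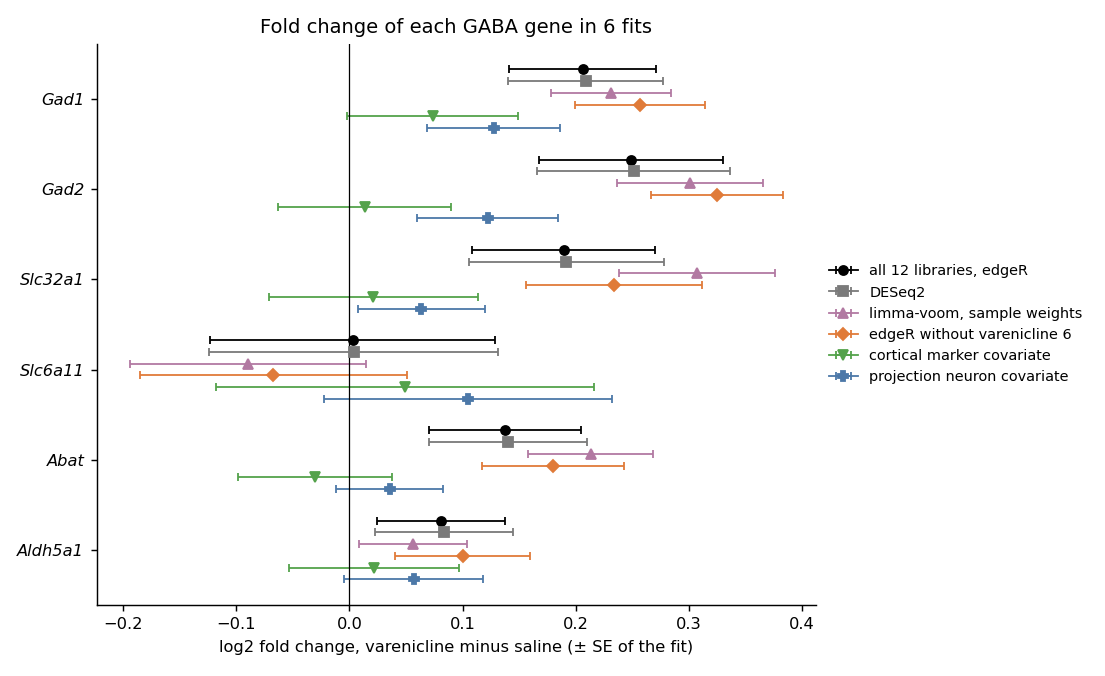
The log2 fold change, varenicline minus saline, of each gene (horizontal axis, whiskers ± SE) in 6 fits marked by colour and symbol (edgeR, DESeq2, limma-voom, edgeR without varenicline 6, and edgeR with the cortical or the projection neuron covariate). Gad2 lies at 0.25 with all 12 libraries, at 0.33 without varenicline 6 and at 0.01 with the cortical marker covariate, while the whiskers of Slc6a11 cross 0 in each of the 6 fits drawn.

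Interneuron and microglia markers went in both directions, and most astrocyte and oligodendrocyte markers had higher values. Of 11 markers of GABAergic interneurons, which also express Gad1, Gad2 and Slc32a1, 4 had higher and 7 lower values with varenicline, with 1 and 3 at an unadjusted p under 0.05. Their mean log2 CPM was 4.15 to 4.38 in saline and 3.99 to 4.37 in varenicline libraries, 4.37 being varenicline 6. Of 10 astrocyte markers, 9 had higher values and 1 lower, 3 of them higher at that level, and their mean was 7.39 to 7.55 in saline and 7.49 to 7.66 in varenicline. With the astrocyte mean as a covariate, Slc6a11 had a log2 difference of −0.25 (SE 0.13, edgeR adjusted p = 0.38), Abat 0.11 (0.552) and Aldh5a1 0.06 (0.742). Oligodendrocyte markers were higher for 9 of 9, 4 at that level, at 8.82 to 9.10 in saline, 8.78 in varenicline 6 and 9.10 to 9.20 in the other varenicline libraries. Within groups, the astrocyte score had r = 0.15 with Abat and 0.174 with Aldh5a1 over the 12 libraries, and the oligodendrocyte score r = 0.615 and −0.166, none of which passed the adjustment over 51 relations (exact permutation, adjusted p between 0.117 and 0.923). Of 6 microglia markers, 3 had higher and 3 lower values, with a median log2 difference of 0.0014.

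Levels per kilobase of exon allow the 6 genes to be set against each other. Gad1 was the highest, at 165.8 ± 18 CPM per kb (SD over all 12 libraries), followed by Abat at 127.8 ± 12 and Gad2 at 68.9 ± 9.43. Slc32a1 followed at 67 ± 8.23, Slc6a11 at 39.9 ± 6.92 and Aldh5a1 at 25 ± 1.75 CPM per kb. Each gene was above the next in 12 of 12 libraries, except that Gad2 was above Slc32a1 in 8 of 12, with a ratio between 0.881 and 1.20. Gad2 and Slc32a1 thus did not differ beyond their spread. Exon length as the count table gives it ran from 2805 bases for Slc32a1 to 5647 bases for Aldh5a1.

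Ratios between partner genes within a library did not differ between groups beyond their spread. The ratio of Gad1 to Gad2 per kb was 2.45 ± 0.145 in saline and 2.38 ± 0.185 in varenicline (SD, n = 6 each, two-sided exact permutation p = 0.478). Its lowest value, 2.12, was in varenicline 1 and its highest, 2.66, in varenicline 6. Slc32a1 to Gad2 was 0.995 ± 0.114 and 0.96 ± 0.088 (SD, n = 6 each, exact permutation p = 0.589). Abat to Aldh5a1 was 5.03 ± 0.638 and 5.21 ± 0.316 (SD, n = 6 each, exact permutation p = 0.5). The tests compared mean log2 ratios, while the means and SDs given are those of the ratios themselves. Adjusted over these 3 ratios, each exact permutation p was 0.589.

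**Figure D3:**
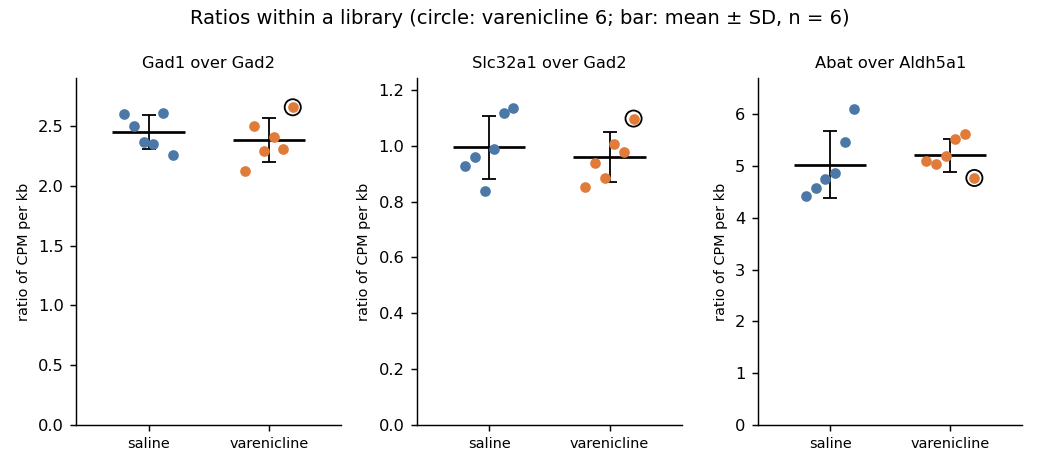
Ratios of CPM per kb (vertical axes, from 0) within each library for 3 pairs of genes, saline in blue and varenicline in orange, with the mean ± SD (n = 6) and varenicline 6 circled. Groups overlap in all 3 panels, and the ratio of Abat to Aldh5a1 reaches from 4.43 to 6.11 within saline.

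Within the groups, 2 pairs of the 6 genes varied together. Deviations of log2 CPM from the group mean were correlated over the 12 libraries for 15 pairs of these genes and for 36 pairs of a gene and a cell type score, 51 relations in all, with exact permutation within groups. Slc32a1 and Abat had r = 0.917 (exact permutation p = 0.000218, adjusted 0.00912) and Spearman's rho = 0.818 (adjusted 0.0338). Gad1 and Gad2 had r = 0.788 (exact permutation p = 0.00311, adjusted 0.0264) and rho = 0.783 (adjusted 0.0429). Without the 2 libraries farthest from the median, r was 0.869 for Slc32a1 with Abat and 0.623 for Gad1 with Gad2. Over 11395 other genes, the 99th percentile of r was 0.793 with Gad1 and 0.831 with Gad2, both above 0.788. It was 0.882 with Slc32a1 and 0.869 with Abat, both below 0.917. Gad1 and Gad2 were thus no more alike than each was to many other genes. Of the other 13 pairs none passed the adjustment by r or by rho, the nearest by r being Gad2 with Abat at 0.716 (exact permutation, adjusted p = 0.0513). Slc6a11 had r between −0.376 and 0.0294 with the other 5 genes.

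The projection neuron score moved with 2 of these genes by both r and rho, and with Gad2 by r alone. Over the 12 libraries its deviations had r = 0.886 with Abat (exact permutation p = 0.000696, adjusted 0.00912, rho = 0.853 with adjusted p = 0.0338), and 0.807 without the 2 farthest libraries. With Slc32a1 r was 0.858 (exact permutation p = 0.000588, adjusted 0.00912, rho = 0.846 with adjusted p = 0.023), and 0.792 without those libraries. With Gad2 r was 0.812 (exact permutation p = 0.00593, adjusted 0.0432), but rho was 0.657 (adjusted 0.131) and r was 0.525 without varenicline 6 and saline 1, so this relation rests on those libraries. With Gad1 r was 0.677 (exact permutation, adjusted p = 0.105), with Aldh5a1 0.251 and with Slc6a11 −0.405. The cortical score went the other way, with r = −0.83 for Gad2 (exact permutation p = 0.0012, adjusted 0.0123, rho = −0.769 with adjusted p = 0.0429) and −0.791 for Abat (exact permutation p = 0.000716, adjusted 0.00912, rho = −0.881 with adjusted p = 0.0167). Without the 2 libraries farthest on that score these were −0.596 and −0.758. For Slc6a11 the highest r were with the astrocyte score, at 0.657, and the interneuron score, at 0.656, and neither passed the adjustment (exact permutation, adjusted p = 0.114 and 0.117).

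**Figure D4:**
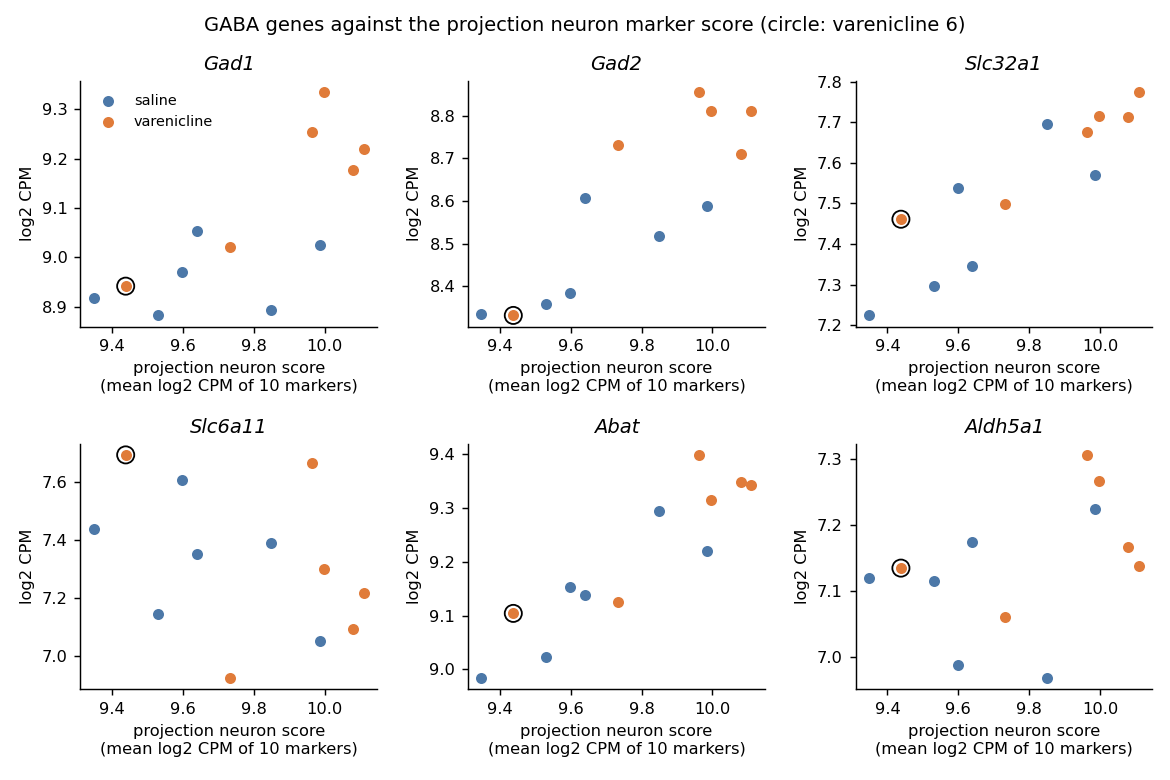
Log2 CPM of each gene (vertical axes) against the mean log2 CPM of 10 projection neuron markers (horizontal axes) in 12 libraries, saline in blue, varenicline in orange and varenicline 6 circled. Points of Slc32a1 and Abat climb together with the score, whose within-group r with them was 0.858 and 0.886, and points of Slc6a11 do not (r = −0.405).

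Among 11395 other genes with a mean of at least 5 CPM, those whose within-group deviations were most like each of the 6 were named, with no test since they are the highest of many. For Gad1 they were Slc22a3, an organic cation transporter (r = 0.945 over 12 libraries), and Aspa, the aspartoacylase of oligodendrocytes (0.942). Gad2 was followed most closely by Pde4b, a cAMP phosphodiesterase (0.962), and Man1a, a Golgi mannosidase (0.955). For Slc32a1 these were Myh10, a nonmuscle myosin heavy chain (0.987), and Scrn1 (0.978), and for Abat they were Nexn, an actin-binding protein (0.955), and Dclk2, a microtubule-associated kinase (0.951). Slc6a11 had Rps6ka1, a ribosomal S6 kinase (0.927), and Phyh, a peroxisomal hydroxylase (0.893). Aldh5a1 had Uri1 (0.952) and Megf10, an engulfment receptor of astrocytes (0.913). The 99th percentile of r over all these genes ran from 0.755 for Slc6a11 to 0.882 for Slc32a1.

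Beyond the 6 genes, 42 of 43 listed genes of GABA handling could be tested, and 25 were higher and 17 lower with varenicline. At an unadjusted p under 0.05, 5 were higher and 4 lower, with 0 called by edgeR after adjustment and a median log2 difference of 0.02. Of the other membrane carriers listed, 2 were tested, neither of them at that level. Their edgeR log2 differences were −0.0013, which is nearly 0, and −0.13 for Slc6a13. Slc6a13 (GAT2) was at 5.11 ± 0.805 CPM in saline and 4.68 ± 0.935 CPM in varenicline (SD, n = 6 each). Of 12 genes supplying glutamate and glutamine, 6 were higher and 6 lower. Glul, the glutamine synthetase of astrocytes, had a log2 difference of 0.09. Got1, the cytosolic aspartate aminotransferase, had −0.13 and the only unadjusted p under 0.05 in this group (edgeR adjusted p = 0.199).

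Routes that make GABA from putrescine or divert succinic semialdehyde had higher values for 7 of 8 genes. At p under 0.05 before adjustment, 2 were higher and 1 lower. The higher were Maob, the monoamine oxidase of astrocytes, at 0.13 (edgeR adjusted p = 0.213) and Sat1, which acetylates polyamines, at 0.17 (0.285), while Aldh9a1, an aldehyde dehydrogenase that can form GABA, had 0.11. The lower was Akr1a1, an aldehyde reductase, which had a log2 difference of −0.14 (edgeR adjusted p = 0.152), and without varenicline 6 it fell by 0.16 (adjusted p = 0.0313). Of 6 genes of the tricarboxylic acid cycle next to the GABA shunt, 3 were higher, of which Suclg2, a subunit of succinate-CoA ligase, had 0.17 (edgeR adjusted p = 0.211). Of 3 genes of vitamin B6 handling, which make or break down the cofactor of decarboxylase and transaminase, 1 was higher and 2 lower. At p under 0.05 before adjustment there was 1 each way. Pdxk, the pyridoxal kinase, named after its value was seen, had 0.10 (edgeR adjusted p = 0.286). Pdxp, the pyridoxal phosphatase, had −0.15 (edgeR adjusted p = 0.152), and without varenicline 6 it fell by 0.18 (adjusted p = 0.0139). In that fit 1087 of all 15232 genes tested were called lower. With all 12 libraries, DESeq2 called Akr1a1 (adjusted p = 0.0491) but not Pdxp (0.0637). limma-voom with sample weights called both (adjusted p = 0.0068 and 0.0156). DESeq2 called 248 genes lower in all, and limma-voom 1369. With the cortical covariate over all 12 libraries, Akr1a1 had −0.09 and Pdxp −0.07 (edgeR adjusted p = 0.998 each).

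Among 4 genes of GAD65 palmitoylation and vesicle association, 2 were higher and 2 lower. Syp, the synaptic vesicle protein synaptophysin, found at excitatory and inhibitory terminals alike, was at 857.3 ± 92.1 CPM in saline and 624.1 ± 140 CPM in varenicline (SD, n = 6 each), a log2 difference of −0.46 (SE 0.12, edgeR adjusted p = 0.138). It was called by DESeq2 (adjusted p = 0.016), fell by 0.57 without varenicline 6 (edgeR adjusted p = 0.00095), and had a log2 difference of −0.12 with the cortical covariate (adjusted p = 0.998). Transcription factors of GABA neuron fate had 6 of 6 higher, with a median of 0.17. Dlx1 was at 18 ± 1.98 CPM in saline and 24 ± 8.41 CPM in varenicline (SD, n = 6 each), a log2 difference of 0.41 (edgeR adjusted p = 0.247), and it alone among them was at an unadjusted p under 0.05. The septal and pallidal markers given above moved with this list as well, and their part in it was not tested.

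**Figure D5:**
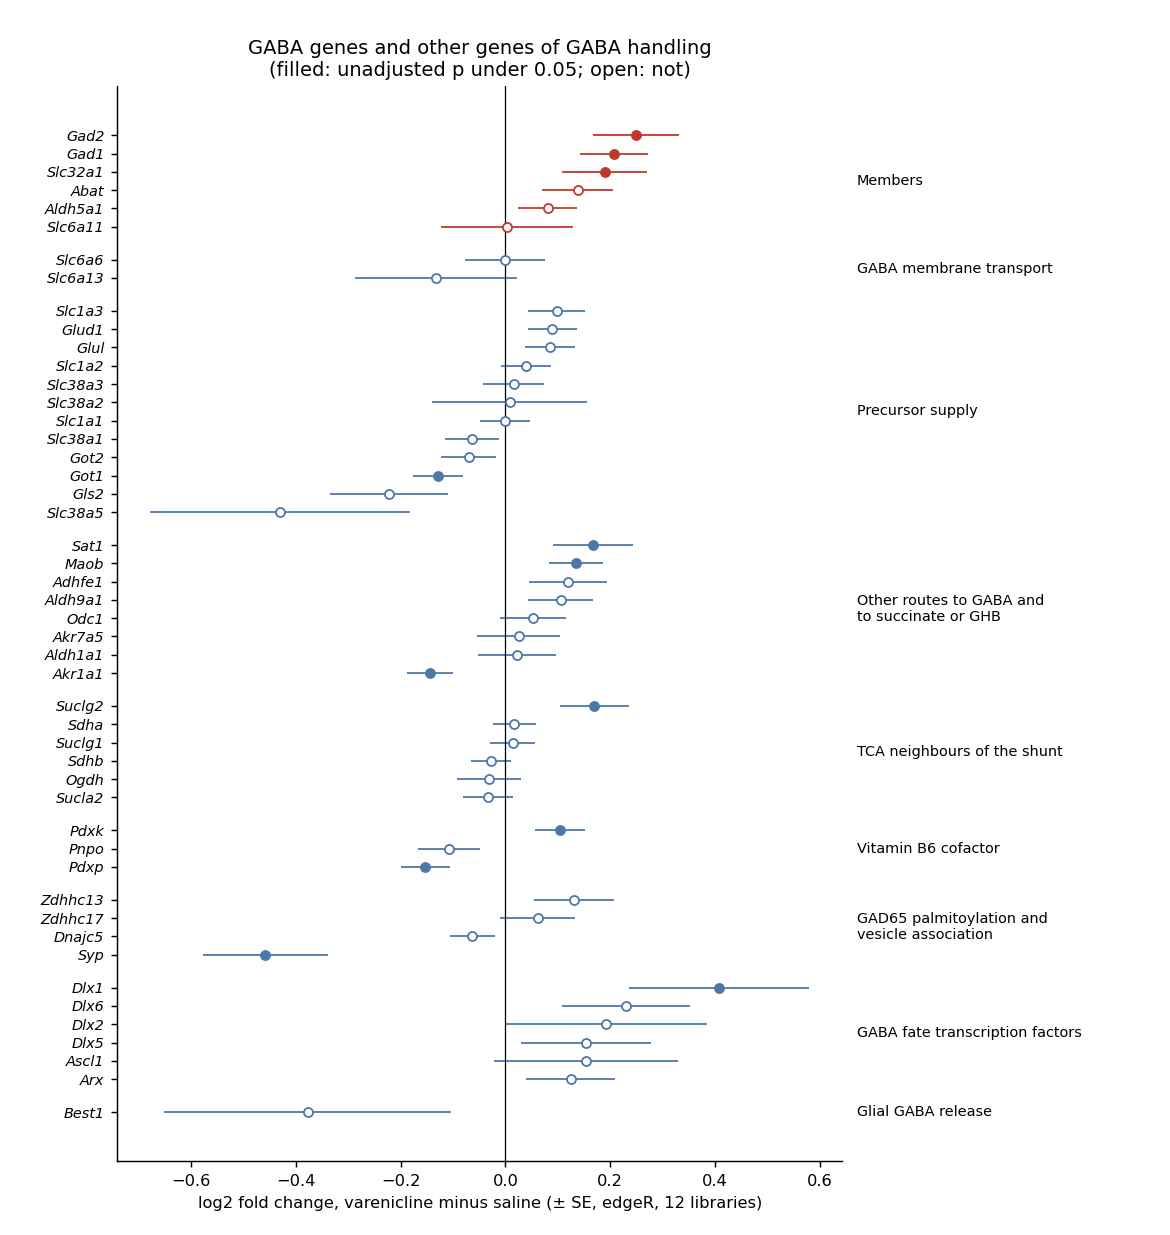
The log2 fold change with SE (horizontal axis, edgeR, 12 libraries) of the 6 genes in red and of 42 other genes of GABA handling in blue, by function, with filled points at an unadjusted p under 0.05. Filled points lie at 0.21, 0.25 and 0.19 for Gad1, Gad2 and Slc32a1, and Syp lies lowest at −0.46.

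Some reads could belong to genes lying over these ones, since the strand setting of the counting is not given. Gad1os, on the strand opposite Gad1, had 150 counts over all 12 libraries, against 6775 to 15720 counts per library for Gad1. Opposite Aldh5a1, 9330162012Rik had 770 counts over 12 libraries and 4932702P03Rik had 32, against 1809 to 4125 counts per library for Aldh5a1. Mir3967, inside Gad2, had 2 counts. Gm14205, opposite Slc32a1, Gm8132, opposite Slc6a11, and Gm23636, inside Gad2, were not among the counted genes. Reads from these could thus not be told apart.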

How the data were processed

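RNA-seq of striatum from 12 libraries was deposited as tables for the whole series. The authors' main table holds raw counts per gene with position and exon length per the file headers. FPKM values and a table of normalized signal per gene, which its name ties to Cuffnorm, were deposited by the authors too and served as alternatives. The tools named, per the submitters' processing notes, are TopHat2, featureCounts, Trimmomatic, FastQC, Cuffnorm, Cuffdiff and DESeq2, with the build mm10. The sources used here give no versions, annotation or strand setting. Reads were single, of 150 nt, from TruSeq libraries, per the labels' protocols.

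Gene symbols turned into dates (27) were restored through their identifiers. Genes passing filterByExpr (15148 of 24421) were TMM-scaled and tested with edgeR 4.0.16 (quasi-likelihood F test, R 4.3.3), comparing varenicline with saline. P-values were adjusted by Benjamini-Hochberg over all 15148 genes, and genes under 0.05 were called. DESeq2 1.42.0, limma 3.58.1 (voom with sample weights), other filters and scalings, marker covariates and leaving out each library were alternatives. Log2 CPM used a prior count of 2. Cell type scores are mean log2 CPM of listed markers with at least 120 counts over all libraries. Ratios were tested on the log2 scale by exact permutation of the group labels, two-sided, and correlations by exact permutation within groups (518400 arrangements). The fitting steps were tested on simulated data. Named are the 6 genes, up to 8 pathway genes at an unadjusted p under 0.05 with the smallest p (a ninth, Pdxk, was added after its value was seen), Slc6a13, Glul and Aldh9a1, the 2 genes most like each of the 6, and overlapping genes. Of the planned genes and ratios, 2 genes and 1 ratio are not reported here and were left out of the list counts. The genes and lists were chosen with earlier results of these data known.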

Additional observations from a re-analysis of the deposited data

Results flagged for a closer look

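A library far from the rest of its group was found in 5 of 64 sets of values checked, where chance would give about 3.2 (1 in 20). Gad2 in varenicline 6 was at 8.33 log2 CPM, with the other varenicline libraries at 8.71 to 8.86. In the same library the mean log2 CPM of the direct pathway markers was 5.40, with the others at 5.84 to 6.08, and that of the oligodendrocyte markers was 8.78, with the others at 9.10 to 9.20. The oligodendrocyte mean was 9.10 in saline 6, with the other saline libraries at 8.82 to 8.89. The endothelial mean was 5.54 in varenicline 1, with the other varenicline libraries at 5.69 to 5.76.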

How the results depend on the processing

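The count of genes called by edgeR was 0 with all 12 libraries, with 2558 at an unadjusted p under 0.05. It was 387 with DESeq2, 2099 with limma-voom, 12 with the cortical covariate, and 210 with the projection neuron covariate and no varenicline 6, which was added after seeing the data. Leaving out 1 library gave 0 to 1628, the 1628 without varenicline 6 and 4 without varenicline 2. In log2 units Gad1 was 0.23 with limma-voom, 0.17 to 0.26 with 1 library left out and 0.07 with the cortical covariate. Gad2 was 0.30 with limma-voom, 0.23 to 0.33 with 1 library left out and 0.01 with the cortical covariate. With limma-voom, Slc32a1 was 0.31 and Abat 0.21. Slc32a1 was 0.16 to 0.24 with 1 library left out, and 0.0024 with the cortical covariate and no varenicline 6. Abat had the other sign with the cortical covariate, at −0.0304, and with that covariate and no varenicline 6, at −0.0627, where Aldh5a1 was −0.0024. Slc6a11 lay near 0 and had the other sign with limma-voom (−0.0898), with the astrocyte covariate (−0.25), with the cortical covariate and no varenicline 6 (−0.39), with the projection neuron covariate and no varenicline 6 (−0.00023), with log2(FPKM + 1) (−0.0081), with log2(FPKM + 0.1) (−0.0086) and with the Cuffnorm values (−0.013). With 1 library left out it was −0.0672 to 0.0729. The cause of these shifts was not tested. None of the 3 ratios changed sign under any alternative run. No paired analysis was possible because the libraries carry no replicate numbers that differ. The lowest count of any of the 6 genes in a library was 1645.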
